A study of Mus musculus with 4 samples.

Results

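The genes described here encode adhesion and pericellular proteolysis proteins of invasive epithelial tumours, and a chromatin protein. They are the laminin-332 chains Lama3 and Lamb3, the epithelial integrin chains Itga2, Itga6, Itgb4 and Itgb6, the urokinase protease Plau with its receptor Plaur, and the chromatin protein Hmga2. They were taken by name, 9 genes of 21420 with a usable gene name, and all 9 were in the table and passed the level filter used for testing. RNA was sequenced from lung tumour preparations of 2 groups of mice, collected 10 weeks after Cre was delivered to the airways with an adenovirus. KL25 mice were Lkb1fl/fl and Usp25-/-, and KL mice were Lkb1fl/fl, with 2 libraries in each group and, per the design text, 2 mice in each. Both groups therefore carry floxed Lkb1 (Stk11, a tumour suppressor kinase). The Usp25 allele is labelled -/- and not floxed, so it is labelled absent from all cells of KL25 mice, tumour or not. The labels give no age and no cell type to which Cre was restricted.

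Laminin-332 is a heterotrimer that holds the α3 and β3 chains encoded by Lama3 and Lamb3, and it anchors epithelial cells to the basement membrane. The α6β4 integrin (Itga6 and Itgb4) binds it in hemidesmosomes, α2β1 (Itga2) binds collagens and laminins, and αvβ6 (Itgb6) binds fibronectin and activates latent TGF-β. Urokinase, bound to the receptor encoded by Plaur, converts plasminogen to plasmin, which degrades matrix. Hmga2 is an embryonic architectural chromatin protein known in mouse lung adenocarcinoma as a marker of poorly differentiated, metastatic tumours.

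The targeted gene was low where its label says so: Usp25 had 2.65 and 1.71 FPKM in the KL25 libraries, against 38.5 and 16.6 FPKM in the KL libraries. FPKM is a level scaled for gene length and for library depth, and each pair of values is given in the order replicate 1, replicate 2. The log2 fold change of Usp25 in limma was -3.07 (SE 0.466, adjusted p = 0.942). In the authors' deposited table it was -3.70 (SE 0.849, adjusted p = 0.0170). The limma fit thus did not pass even the targeted gene, so an adjusted p of 0.942 there does not show that a gene was unchanged. The deposited means give relative depths (size factors) of 0.823 to 0.853 in KL25 and 1.09 to 1.30 in KL. KL replicate 1 stood apart from the rest, with correlations across 12476 genes of 0.874 to 0.885 with each of the other libraries, against 0.933 to 0.967 among those. The cells are labelled CD45-negative, but Ptprc, which encodes CD45, was at 51.0 and 43.3 FPKM in KL25 and at 122.7 and 46.4 FPKM in KL. The 9 leukocyte markers summed to 3160 and 3083 FPKM in KL25, and to 4631 and 4101 FPKM in KL. The 11 epithelial markers, keratins and Epcam among them, summed to 4329 and 1645 FPKM in the KL25 libraries, against 1140 and 977 FPKM in the KL libraries.

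By the GENCODE M21 annotation of GRCm38, Lamb3 lies on chromosome 1 from 193207699 to 193343878 and Itga6 on chromosome 2 from 71745616 to 71858416, both on the plus strand. Itgb6 lies on the minus strand of chromosome 2 from 60598292 to 60722643. Itgb4 lies on chromosome 11 from 115974709 to 116008412, Plau on chromosome 14 from 20836660 to 20843385 and Plaur on chromosome 7 from 24462484 to 24475968, all on the plus strand. Hmga2 lies on chromosome 10 from 120361275 to 120476469 and Itga2 on chromosome 13 from 114833081 to 114932100, both on the minus strand. Of the 9 genes only Itga6 and Itgb6 share a chromosome.

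Proximal promoters were available from RefSeq (GRCm38.p6) for 5 of the 9 genes, namely Hmga2, Lamb3, Itga2, Itgb6 and Plaur. The 250 bases before the start site are shown for 4 of them: Lamb3 and Itgb6, whose libraries did not overlap between the groups, Plaur, the gene that did not go the way of the others, and Hmga2, the gene that varied most. They lie at chr1:193301744-193301993, plus strand, for the upstream of 2 listed Lamb3 start sites, at chr2:60722604-60722853, minus strand, for the upstream of 2 listed Itgb6 start sites, at chr7:24462233-24462482, plus strand, and at chr10:120476470-120476719, minus strand. Capitals mark matches on either strand to the AP-1 motif TGANTCA or to the GC box GGGCGG.
Lamb3: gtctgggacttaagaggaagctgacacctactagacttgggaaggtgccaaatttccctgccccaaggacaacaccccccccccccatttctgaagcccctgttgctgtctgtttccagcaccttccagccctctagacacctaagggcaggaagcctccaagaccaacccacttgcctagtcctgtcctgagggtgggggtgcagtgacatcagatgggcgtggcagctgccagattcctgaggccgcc
Itgb6: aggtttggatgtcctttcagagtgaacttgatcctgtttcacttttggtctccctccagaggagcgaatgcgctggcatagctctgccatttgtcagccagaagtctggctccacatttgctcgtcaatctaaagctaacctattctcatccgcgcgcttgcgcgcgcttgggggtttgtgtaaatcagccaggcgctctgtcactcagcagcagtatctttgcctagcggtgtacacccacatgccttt
Plaur: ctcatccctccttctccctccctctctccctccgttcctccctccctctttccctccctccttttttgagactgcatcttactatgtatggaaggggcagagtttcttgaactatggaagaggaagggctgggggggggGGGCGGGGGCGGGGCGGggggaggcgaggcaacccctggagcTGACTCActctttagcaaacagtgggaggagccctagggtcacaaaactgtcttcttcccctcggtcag
Hmga2: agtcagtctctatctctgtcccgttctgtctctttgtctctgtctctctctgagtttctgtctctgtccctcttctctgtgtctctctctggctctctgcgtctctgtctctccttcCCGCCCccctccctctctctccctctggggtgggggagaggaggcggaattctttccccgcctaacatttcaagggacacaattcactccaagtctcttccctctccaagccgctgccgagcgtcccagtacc
The Plaur window holds 1 AP-1 match, which begins 69 bases before the start site, and 3 GC boxes that begin 111, 105 and 100 bases before it, the last pair sharing a base. Of 32851 promoters of the same length 6.75% hold the AP-1 motif and 32.7% a GC box. Hmga2 has a GC box 133 bases before its start site and a pyrimidine-rich window, with C or T at 70.8% of its bases, above 99.6% of all promoters (median 50%). Neither motif is in these windows of Lamb3, Itgb6 or Itga2, and these matches are descriptions of sequence, not of binding.

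Among the 9 genes, 8 had higher mean levels in KL25 than in KL, and the same 8 had positive log2 fold changes, beside 53.1% of all genes tested. In limma none passed at an adjusted p below 0.05. The median log2 fold change of the 9 was 0.74, beside 0.030 over all 12476 genes tested, and 6 of the 9 reached 0.5, beside 13.9% of all genes. In limma 0% of all genes passed in either direction, and at an unadjusted p below 0.05 they were 2.16% higher and 1.07% lower, with 0 of the 9 among them. KL25 lay above KL in both libraries for 3 genes, Lamb3, Itga6 and Itgb6, beside 19.1% of all genes tested. For the other 6 genes the groups overlapped. The smallest two-sided p of an exact permutation test is 0.333 with 2 libraries against 2. In these bulk preparations, fewer cells of a type and less RNA per cell cannot be told apart.

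**Figure D1:**
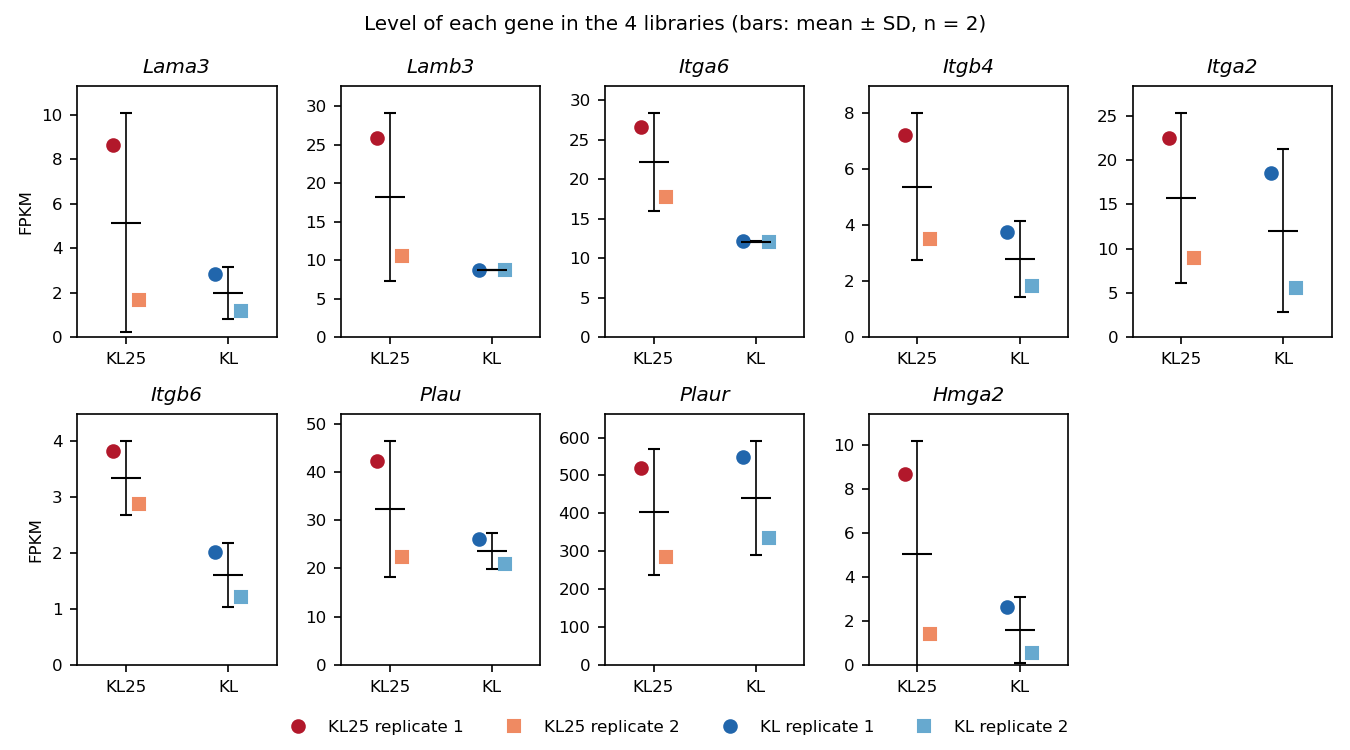
FPKM of the 9 genes in each library, KL25 left of KL in each panel, with points for libraries and bars for the mean and SD of 2 libraries (the lower bar of Hmga2 in KL25 runs below 0 and is not drawn there). KL25 replicate 1 holds the highest value of every gene shown but Plaur, and the KL25 libraries lie above both KL libraries for Lamb3, Itga6 and Itgb6.

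The laminin-332 chains were highest in KL25 replicate 1. Lamb3, the β3 chain, was at 26.0 and 10.5 FPKM in the KL25 libraries, against 8.78 and 8.70 FPKM in the KL libraries. The KL libraries were nearly equal, and both KL25 libraries lay above them, though KL25 replicate 2 by little. The log2 fold change, on the log2(FPKM + 1) scale, was 0.85 (SE 0.464), and limma gave an adjusted p of 0.942. Lama3, the α3 chain, whose gene lies on the plus strand of chromosome 18 from 12333819 to 12583013, was at 8.64 and 1.66 FPKM in the KL25 libraries, against 2.83 and 1.17 FPKM in the KL libraries. Here KL25 replicate 2 lay below KL replicate 1, so the groups overlapped, and the mean of 5.15 ± 4.93 FPKM in the KL25 libraries, against 2.00 ± 1.18 FPKM in the KL libraries (SD, n = 2 each) rests on KL25 replicate 1. Its log2 fold change was 0.81 (SE 0.692, adjusted p = 0.942 in limma) with all libraries and -0.12 without KL25 replicate 1.

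Per length these chains were present at unequal levels, Lamb3 above Lama3 in every library. The Lamb3 level was 3.01 and 6.32 times that of Lama3 in KL25, and 3.10 and 7.44 times in KL. The ratio of Lamb3 to Lama3 was thus lower in KL25 replicate 1 and KL replicate 1, the pair of libraries with more Lama3, and did not separate the groups.

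The α6β4 integrin chains both had higher means in KL25, and they differed in spread. Itga6, the α6 chain, was at 26.6 and 17.8 FPKM in the KL25 libraries, against 12.12 and 12.04 FPKM in the KL libraries. Both KL25 libraries were clearly above the KL pair, which stood at a ratio of 1.01. Its log2 fold change of 0.80 (SE 0.318) had the lowest unadjusted p of the 9 genes (0.0515), with an adjusted p of 0.942 in limma. Itgb4, the β4 chain that pairs with α6 alone, was at 7.24 and 3.51 FPKM in the KL25 libraries, against 3.74 and 1.82 FPKM in the KL libraries. KL25 replicate 2 and KL replicate 1 were close, so the groups overlapped, and the log2 fold change was 0.74 (SE 0.451, adjusted p = 0.942 in limma). Per length Itga6 exceeded Itgb4 in all libraries, by 3.67 and 5.07 times in KL25, and by 3.24 and 6.60 times in KL.

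Of the other 2 integrin chains, Itgb6 separated the groups and Itga2 did not. Itgb6, the β6 chain, was at 3.81 and 2.88 FPKM in the KL25 libraries, against 2.02 and 1.21 FPKM in the KL libraries. It was the lowest-expressed gene of the 9 by its KL25 mean (3.35 ± 0.661 FPKM for KL25 and 1.61 ± 0.572 FPKM for KL, SD, n = 2 each), and its log2 fold change was 0.74 (SE 0.344, adjusted p = 0.942 in limma). Its partner Itgav, the αv chain, was at 18.8 and 10.6 FPKM in the KL25 libraries, against 16.5 and 6.48 FPKM in the KL libraries, with overlapping groups. Itga2, the α2 chain of a collagen receptor, was at 22.5 and 8.94 FPKM in the KL25 libraries, against 18.6 and 5.50 FPKM in the KL libraries. The libraries alternated, so that the spread within each group exceeded the difference of the means, and the log2 fold change was 0.44 (SE 0.679, adjusted p = 0.946 in limma). It was -0.18 without KL25 replicate 1 and -0.36 without KL replicate 2.

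The urokinase pair had the log2 fold changes nearest 0 in limma, though in the authors' deposited table Itga2 (0.34) was nearer 0 than Plau (0.43). Plau, the protease, was at 42.4 and 22.4 FPKM in the KL25 libraries, against 26.2 and 20.9 FPKM in the KL libraries. Its groups overlapped, and the log2 fold change of 0.39 (SE 0.400, adjusted p = 0.942 in limma) was -0.057 without KL25 replicate 1. Plaur, the receptor, was at 520.9 and 285 FPKM in the KL25 libraries, against 548 and 335 FPKM in the KL libraries. It was the most abundant of the 9 per length and the only one whose mean was lower in KL25 (403 ± 167 FPKM for KL25 and 441 ± 151 FPKM for KL, SD, n = 2 each). Its log2 fold change of -0.15 (SE 0.481, adjusted p = 0.972 in limma) became 0.28 without KL25 replicate 2 and 0.20 without KL replicate 1. The ratio of Plaur to Plau, per length, was 12.3 and 12.7 in KL25, against 20.9 and 16.03 in KL, so this ratio was lower in both KL25 libraries. It was chosen after its values were seen and was not tested, and each gene alone overlapped between the groups. Neutrophils and macrophages are known to express Plaur. Neutrophil markers summed to 1955 and 1149 FPKM in the KL25 libraries, against 39832 and 691 FPKM in the KL libraries over 5 genes. Macrophage markers summed to 32200 and 33380 FPKM in the KL25 libraries, against 13502 and 40207 FPKM in the KL libraries over 6 genes. Nearly all of this sum was Lyz2 in every library, and in KL replicate 1 Lyz2 stood at 12613 FPKM. The other macrophage markers did not share its order. Adgre1, Csf1r and Marco were highest in KL replicate 1, while Cd68 and Mrc1, like Lyz2, were highest in KL replicate 2. Adgre1 and Csf1r were lower in both KL25 libraries than in either KL library, beside 15% of all genes tested. For Cd68, Lyz2, Marco and Mrc1 the groups overlapped. The part of neutrophils and macrophages in the Plaur level was not tested.

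Hmga2 varied more between libraries than any other of the 9 genes. It was at 8.69 and 1.40 FPKM in the KL25 libraries, against 2.65 and 0.521 FPKM in the KL libraries, a 16.7-fold range. The value of KL25 replicate 2 lay below that of KL replicate 1. Replicate 1 was 6.21 times replicate 2 within KL25, and 5.09 times within KL, against a ratio of group means of 3.18. Its log2 fold change was 1.03 (SE 0.794, adjusted p = 0.942 in limma), and 0.025 without KL25 replicate 1. Its relative Hmga1 was at 10.4 and 12.8 FPKM in the KL25 libraries, against 15.6 and 6.93 FPKM in the KL libraries, with the groups overlapping.

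**Figure D2:**
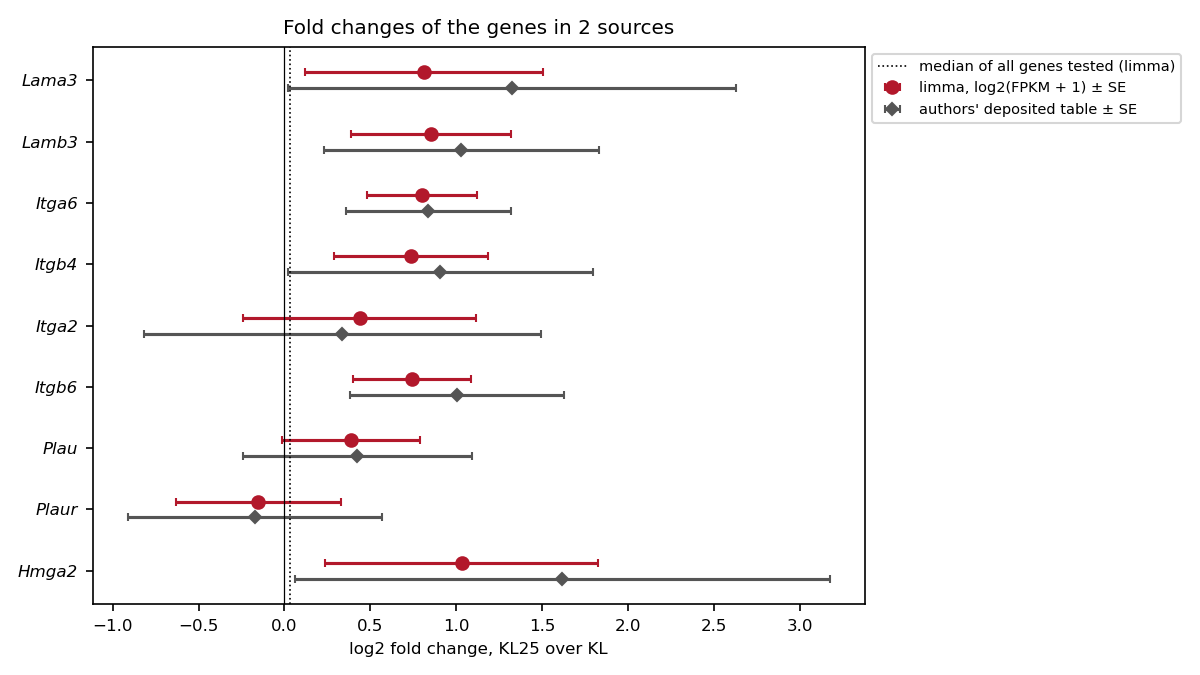
Log2 fold change of KL25 over KL for each gene, with bars of 1 SE, from limma on log2(FPKM + 1) and from the authors' deposited table, beside the median of all genes tested (dotted, 0.030). All genes shown but Plaur lie right of 0 in both sources, and the deposited SE of each gene is larger than that of limma.

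In the authors' deposited table the signs were the same for all 9 genes, from 1.62 (SE 1.56) for Hmga2 to -0.17 (SE 0.740) for Plaur. There Itga6 had the lowest unadjusted p, at 0.0808, and Itgb6 followed at 0.108. None of the 9 had an unadjusted p below 0.05 in the authors' deposited table, where 2.15% of the genes tested here were higher in KL25 at that level. The adjusted p in the authors' deposited table was 1.00 for each of the 9, where 0.104% of the genes tested here were higher in KL25 at an adjusted p below 0.05. The mean normalized count of the authors' deposited table, the depth behind each gene, was lowest for Itgb6 (131) and Hmga2 (157) and highest for Itga6 (1150) and Plaur (6686).

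The order of the libraries differed among the 9 genes. It was KL25 replicate 1, KL replicate 1, KL25 replicate 2, KL replicate 2, from high to low, for Hmga2, Lama3, Itga2, Itgb4 and Plau, while both KL25 libraries came first for Lamb3, Itga6 and Itgb6. KL25 replicate 1 was the highest library for 8 of them, beside 25.4% of all genes tested, and KL replicate 2 the lowest for 8, beside 23.2%. In 9 of 9 replicate 1 exceeded replicate 2 within KL25 and within KL, beside 24.1% of all genes. These counts were made after the values were seen, and replicate numbers are only names here. The exceptions to both of the counts of 8 were Plaur, highest in KL replicate 1 and lowest in KL25 replicate 2. Over the 4 libraries, the non-member genes with the profiles closest to the mean profile of the 9 were Kcnk1, Anxa1, Itga3, Ap1m2 and Slc44a3, at Euclidean distances of 0.107 to 0.190 on the centred log2(FPKM + 1) scale among 7573 candidates. Kcnk1 was at 36.4 and 17.2 FPKM in the KL25 libraries, against 19.3 and 11.4 FPKM in the KL libraries. Itga3, the α3 chain of another laminin-332 receptor, was at 34.2 and 14.8 FPKM in the KL25 libraries, against 18.0 and 12.8 FPKM in the KL libraries.

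**Figure D3:**
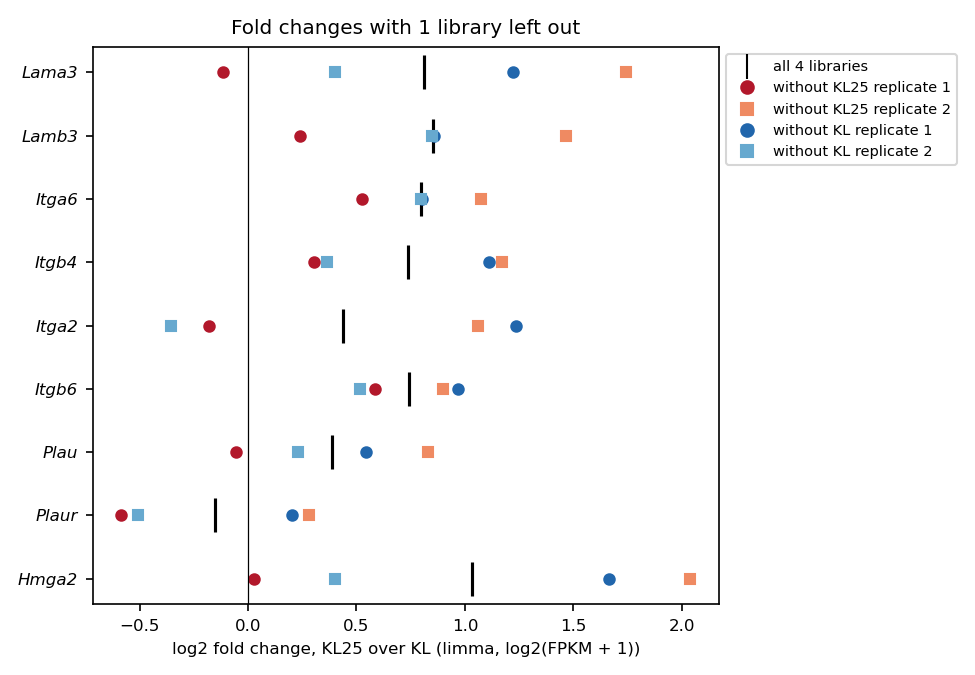
Log2 fold change of KL25 over KL in limma for each gene with all 4 libraries (tick) and with 1 library left out (points). Without KL25 replicate 1 the values of Lama3, Itga2, Plau and Plaur lie below 0 and that of Hmga2 at 0.025, while Lamb3, Itga6, Itgb4 and Itgb6 stay above 0 whichever library is left out.

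The size of the differences depended on which library was left out. The median log2 fold change of the 9 genes was 0.025 when KL25 replicate 1 was left out and 1.08 when KL25 replicate 2 was. Leaving out KL replicate 1 gave 0.97, and leaving out KL replicate 2 gave 0.40. Without KL25 replicate 1, Itga6 and Itgb6 kept log2 fold changes of 0.52 and 0.59, and Lamb3 and Itgb4 had 0.24 and 0.30. The count of genes with KL25 above KL in all remaining libraries was 3 without KL25 replicate 1 or KL replicate 2, where all genes gave 31.1% and 43.8%. It was 8 without KL25 replicate 2 or KL replicate 1, where all genes gave 32.8% and 35.4%. No gene of the 9 passed in any of these fits.

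Epithelial markers, like 8 of the 9 genes, had their highest sum in KL25 replicate 1. Of 11 epithelial markers all had a positive log2 fold change (median 1.29), 9 had both KL25 libraries above both KL libraries, beside 19.1% of all genes tested, and none was at 0 in any library. Krt8, a simple epithelial keratin, was at 1067 and 382 FPKM in the KL25 libraries, against 252 and 247 FPKM in the KL libraries, and Epcam, an epithelial adhesion molecule, at 205 and 69.9 FPKM in the KL25 libraries, against 57.8 and 35.8 FPKM in the KL libraries. Most of the epithelial sum was Krt7, Krt8, Krt18 and Krt19, whose ratios of KL25 to KL means ran from 2.72 to 3.30. Over the 11 markers such ratios ran from 1.56 (Spint1) to 3.53 (Cldn7). A level relative to the sum therefore depends mainly on these keratins, and other markers could give other ratios. Relative to the summed epithelial markers, the 9 genes had mean ratios of KL25 to KL between 0.357 (Plaur) and 0.999 (Hmga2). On that scale KL25 lay below KL in both libraries for 4 of the 9, namely Lamb3, Itga2, Plau and Plaur, beside 63.2% of all genes tested, and above for 0, beside 0.834%. Lamb3 was at 5.997 and 6.38 FPKM per 1000 FPKM of epithelial markers in KL25, against 7.70 and 8.91 in KL. Itga6 was at 6.14 and 10.8 per 1000 in KL25, against 10.6 and 12.3 in KL, and Itgb6 at 0.881 and 1.75 per 1000 in KL25, against 1.77 and 1.24 in KL, with overlapping groups for both. The part of epithelial content in the levels of the 9 genes was not tested.

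**Figure D4:**
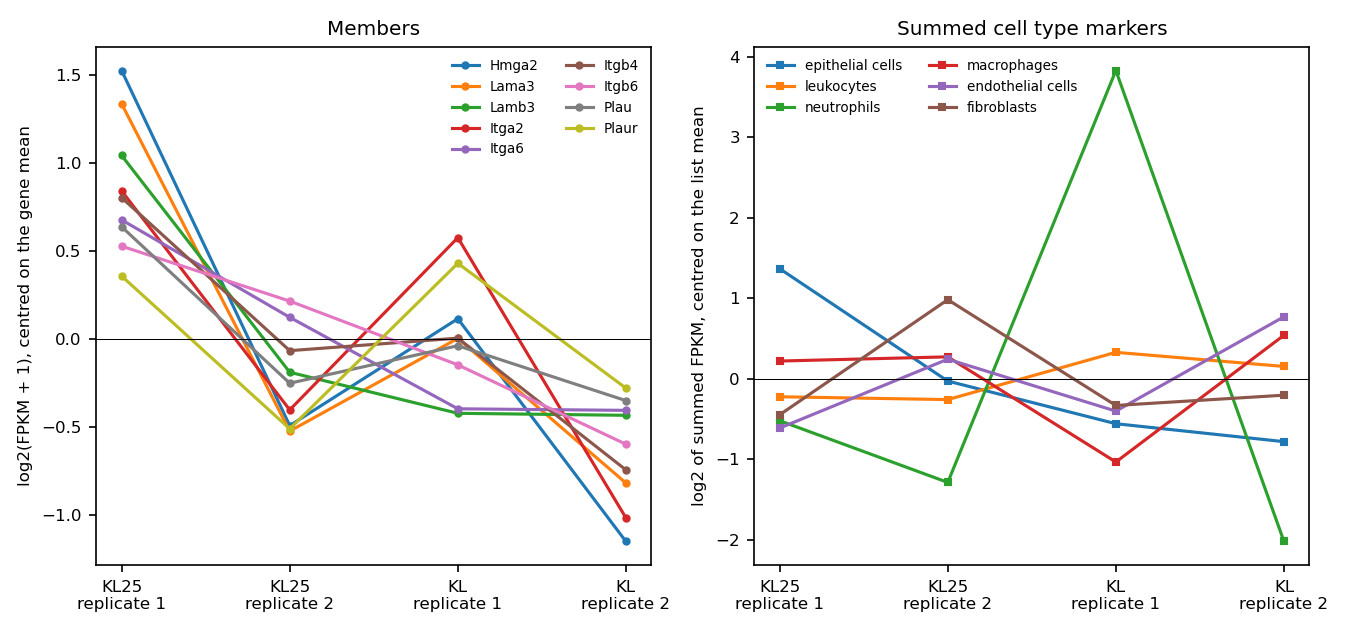
Left, log2(FPKM + 1) of each of the 9 genes in the 4 libraries, centred on the gene's mean; right, log2 of the summed FPKM of 6 marker lists, centred likewise, with lines only joining the points of 1 gene or list. The epithelial sum is highest in KL25 replicate 1, as are 8 of the 9 genes. In KL replicate 1 the neutrophil and leukocyte sums are highest and the macrophage sum is lowest. Plaur is highest in KL replicate 1 too, but nearly as high in KL25 replicate 1.

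**Figure D5:**
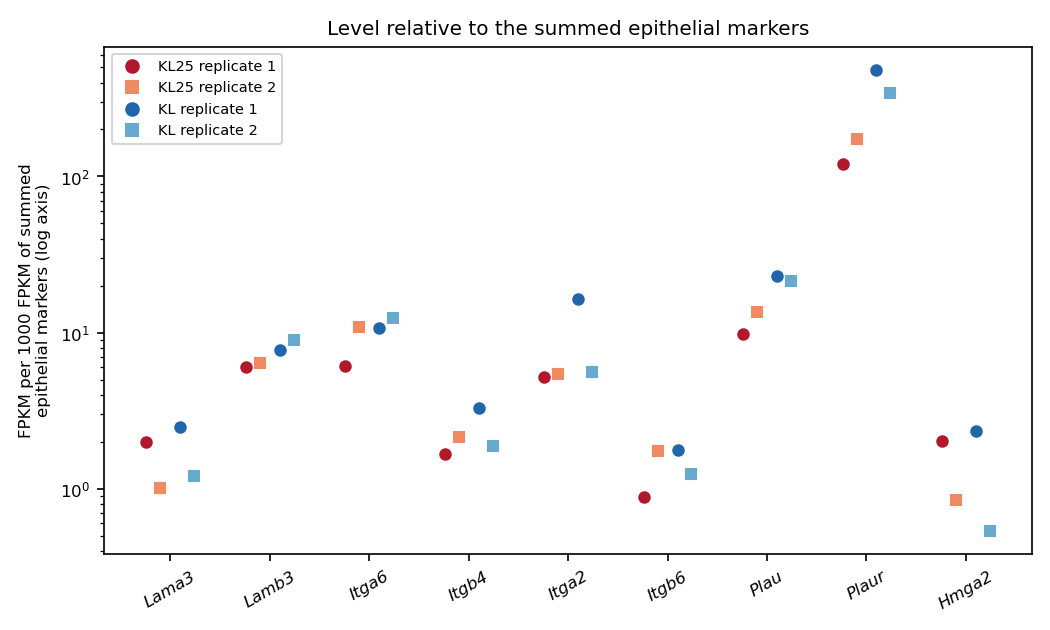
Level of each gene per 1000 FPKM of summed epithelial markers (log axis), with 1 point per library, KL25 left of KL for each gene. Most of the epithelial sum is Krt7, Krt8, Krt18 and Krt19. KL25 lies below KL for Lamb3, Itga2, Plau and Plaur, and the groups overlap for the others shown.

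Markers of other cell types that can express these genes were also measured. The 6 endothelial markers, cells known to express α6 integrin, summed to 75.0 and 135.7 FPKM in the KL25 libraries, against 86.8 and 196 FPKM in the KL libraries, and the 6 fibroblast markers to 43.8 and 118 FPKM in the KL25 libraries, against 47.5 and 51.9 FPKM in the KL libraries. The 4 platelet markers summed to 38.8 and 25.5 FPKM in the KL25 libraries, against 32.5 and 11.8 FPKM in the KL libraries, with Gp9 at 0 in KL25 replicate 1 and KL replicate 2. Basal cell markers, cells that normally carry laminin-332 and α6β4, summed to 3.03 and 4.82 FPKM in the KL25 libraries, against 47.9 and 0.482 FPKM in the KL libraries over 4 genes. Of these Krt5 and Trp63 were at 0 in KL25 replicate 2, and Krt5 was at 19.0 FPKM in KL replicate 1. The 5 mesothelial markers summed to 141 and 83.9 FPKM in the KL25 libraries, against 48.2 and 34.6 FPKM in the KL libraries, nearly all of it Msln. The rest of that list did not share the order of Msln, since Upk3b, Wt1, Gpm6a and Lrrn4 were each highest in KL25 replicate 2. Alveolar type 1 and type 2 markers, 4 of each, summed to 163 and 175 FPKM and to 4688 and 4217 FPKM in KL25, against 107 and 187 FPKM and 1230 and 3515 FPKM in KL. The part of these cells in the levels of the 9 genes was not tested.

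The wider pathway was described with 9 lists of 88 genes, of which 87 were in the table and 68 were tested. None passed in limma in either direction, where 0% of all genes did. A positive log2 fold change was seen for 33 and a negative one for 35, beside 53.1% positive of all genes tested. At an unadjusted p below 0.05 in limma there was 1 higher gene, Mmp13, and 0 lower. Of all genes tested, 2.16% were higher and 1.07% lower at that level. Plg, which encodes plasminogen, was not analysed here.

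Among the other laminin chains 6 of 9 were tested, with a median log2 fold change of 0.41. Leaving out KL25 replicate 1 gave 0.20 for this median, leaving out KL replicate 1 gave 0.27, and leaving out KL25 replicate 2 gave 0.59. It was 0.0022 over all 9 chains with no level filter. Lama5 and Lamb1, chains of laminins found in most epithelial basement membranes, also had both KL25 libraries above both KL libraries. Lama5 was at 11.4 and 7.45 FPKM in the KL25 libraries, against 5.55 and 5.71 FPKM in the KL libraries, and Lamb1 at 13.1 and 7.38 FPKM in the KL25 libraries, against 6.35 and 5.64 FPKM in the KL libraries. Lamb2 was at 6.36 and 5.51 FPKM in the KL25 libraries, against 3.65 and 6.87 FPKM in the KL libraries. Hemidesmosome and basement membrane genes had a median of -0.046 over 10 tested, but -0.26 without KL replicate 1, -0.18 without KL25 replicate 2, 0.079 without KL25 replicate 1 and 0.36 without KL replicate 2. Bcam, a receptor of α5-chain laminins, was at 96.1 and 83.7 FPKM in the KL25 libraries, against 25.5 and 72.7 FPKM in the KL libraries. Dst, a hemidesmosomal plakin, was at 5.10 and 6.002 FPKM in the KL25 libraries, against 9.84 and 6.73 FPKM in the KL libraries, so it lay on the opposite side from Itgb4. Col17a1, a transmembrane collagen that defines mature hemidesmosomes, was at or below 0.766 FPKM in every library, and at 0 in KL25 replicate 1 and KL replicate 2.

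The other integrin chains of epithelium and stroma had a median of -0.039 over 9 tested, with a range of -0.21 (without KL replicate 2) to 0.031 (without KL replicate 1) when 1 library was left out. Itga5, the fibronectin receptor chain, was at 12.1 FPKM in both KL25 libraries, against 28.0 and 14.8 FPKM in KL, and Itga1, a collagen receptor chain, at 1.5997 and 2.41 FPKM in the KL25 libraries, against 3.57 and 2.65 FPKM in the KL libraries. For these 2 chains the KL25 libraries were the lower pair without overlap, beside 15% of all genes tested. The leukocyte and platelet integrin chains had a median of -0.30 over 8 tested, which was 0.0019 without KL25 replicate 1, -0.72 without KL25 replicate 2 and -0.14 without KL replicate 1. Among them Itgb2 was at 317 and 377 FPKM in the KL25 libraries, against 466 and 587 FPKM in the KL libraries, and Itgam, a myeloid chain, at 15.2 and 17.3 FPKM in the KL25 libraries, against 268 and 14.2 FPKM in the KL libraries.

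Adaptors that link integrins to actin had a median of 0.11 over 11 tested, and between -0.12 (without KL replicate 1) and 0.058 (without KL25 replicate 1) with any 1 library left out. Fermt1, the epithelial kindlin that activates integrins, was at 8.84 and 1.90 FPKM in the KL25 libraries, against 1.44 and 0.521 FPKM in the KL libraries, and its log2 fold change of 1.47 (SE 0.658, adjusted p = 0.942 in limma) exceeded that of each of the 9 genes. Its libraries did not overlap, and KL25 replicate 1 held the high value, as for Hmga2. Src, a kinase of adhesion sites, was at 9.90 and 8.68 FPKM in the KL25 libraries, against 6.61 and 4.94 FPKM in the KL libraries. Pxn, which encodes paxillin, lay lower, at 20.3 and 16.6 FPKM in the KL25 libraries, against 49.1 and 24.99 FPKM in the KL libraries. Ligands of αvβ6 had a median of -0.017 over 3 tested, and of -0.41 without KL replicate 1. Fn1, fibronectin, was at 86.4 and 75.2 FPKM in the KL25 libraries, against 86.3 and 114.4 FPKM in the KL libraries.

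Partners of the plasminogen system had a median of -0.11 over 8 tested, which became 0.015 when KL replicate 2 was left out and -0.18 when KL replicate 1 was. For none of them did the libraries separate the groups. Of all genes tested, 19.1% had KL25 above KL without overlap and 15% below. Anxa2, a plasminogen-binding annexin, was at 1351 and 996 FPKM in the KL25 libraries, against 674 and 1116 FPKM in the KL libraries. Matrix metalloproteinases and their inhibitors had a median of 0.28 over 11 tested, but -0.024 without KL replicate 2 and 0.43 without KL replicate 1. Mmp13, a collagenase, was at 15.2 and 6.97 FPKM in the KL25 libraries, against 4.82 and 1.22 FPKM in the KL libraries, with a log2 fold change of 1.66 (SE 0.598, adjusted p = 0.942 in limma). Mmp12, the macrophage elastase, was at 49.4 and 62.7 FPKM in the KL25 libraries, against 35.2 and 41.1 FPKM in the KL libraries, and Mmp8, a neutrophil collagenase, at 12.9 and 16.8 FPKM in the KL25 libraries, against 254 and 15.4 FPKM in the KL libraries. Among the relatives and RNA-binding partners of Hmga2 only Hmga1 and Igf2bp2 passed the level filter, with a median of 0.12 that ranged from -0.41 (without KL replicate 2) to 0.49 (without KL replicate 1). Igf2bp2 was at 4.03 and 4.48 FPKM in the KL25 libraries, against 4.62 and 3.21 FPKM in the KL libraries, again with overlap.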

How the data were processed

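Poly(A) RNA of 4 lung tumour preparations was sequenced with a stranded kit. Per the labels' protocols, cutadapt trimmed the reads, GRCm38 was the alignment target and HTSeq gave counts per gene. The submitters' processing notes name GRCm39 too. No source used here gives the aligner, versions or strand setting. The deposited values per library were read as FPKM from their size, since their header names no unit. The authors also deposited the mean normalized count (a signal), the log2 fold change, its SE, a test score, and p-values before and after adjustment (NA for 6650 genes), per the file headers. Among genes seen in 1 library, 100% of the deposited means were whole multiples of a step, within 0.01 of a step, which gave relative depth. Counts per gene were not recovered, so no counting interval is given.

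Rows whose names had become dates (25 of 21445, with 0.117% of FPKM) were left out. limma 3.58.1 under R 4.3.3, with a mean-variance trend, was fitted to log2(FPKM + 1) of the 12476 genes whose mean reached 1 FPKM in KL25 or in KL. Adjustment was by Benjamini-Hochberg over all of them, with a threshold of 0.05. This scale understates fold changes of low genes. Folds of means are ratios of FPKM. No covariates were used, and p-values measure the spread between 2 libraries per group. The 15 alternatives tried are given in the closing section.

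The members and lists were chosen with earlier results of these data known. Besides the members, the rule named Usp25, up to 4 genes per list with the lowest unadjusted p, the 5 genes of closest profile with a mean of at least 5 FPKM, and cell type markers. Col17a1 and the ratios between genes were chosen after their values were seen. A table of the same values in another order, and one with only a title, were not used here. Some genes of these lists and 1 allele that both groups of mice carry are not reported here.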

Additional observations from a re-analysis of the deposited data

How the results depend on the processing

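The comparison was refitted under 15 alternatives: pseudocounts of 0.1 and 5, 2 other filters, 3 scalings, 3 variance or weight settings, the replicate number as a term, and each library left out. In limma 0 genes passed in any of them. At an unadjusted p below 0.05 the counts ran from 107 higher and 49 lower (without KL25 replicate 1) to 1205 higher and 1445 lower (without KL replicate 2), against 269 and 134 with all libraries. Of 135 values of the 9 genes under these alternatives 129 kept their sign and side of the threshold and 6 changed sign, all with a library left out, where an arm of 1 library is assumed to vary like the other. With 1 library left out the log2 fold change ranged from -0.12 to 1.74 for Lama3, from -0.36 to 1.23 for Itga2, from -0.057 to 0.83 for Plau and from -0.58 to 0.28 for Plaur. The negative values of Lama3 and Plau arose without KL25 replicate 1, those of Itga2 without KL25 replicate 1 (-0.18) or KL replicate 2, and the positive ones of Plaur without KL25 replicate 2 or KL replicate 1 (0.20). The median log2 fold change of the 9 genes ranged from 0.025 to 1.08 when 1 library was left out and from 0.40 to 0.91 elsewhere. The low value follows from leaving out KL25 replicate 1, the highest library for 8 genes.

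The replicate numbers are shared by the groups, but no label ties them to animals or batches. Deviations of the same-numbered libraries correlated at 0.152 across genes. With the replicate block 0 genes passed, and 373 higher and 252 lower genes had an unadjusted p below 0.05. With 2 balanced groups the block cannot change a log2 fold change (the median of the 9 genes is 0.74 by construction), so it bears on the SE alone. Under it Hmga2 had an unadjusted p of 0.0326 in limma, against 0.248 without the block.

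Itga6 also had an unadjusted p below 0.05 in limma under other alternatives. It was 0.0461 with no filter, where 334 higher and 258 lower of 21420 genes reached that level. After quantile normalization it was 0.0467, beside 258 higher and 140 lower of 12476 genes. After rescaling to the same total it was 0.0485, beside 280 higher and 133 lower of 12485 genes. The adjusted p of Itga6 in limma was 0.971, 0.934 and 0.958 in these fits. No p-value of the 9 genes is given for fits with 1 library left out, where an arm of 1 library has no spread.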
